A study of Mus musculus with 69 samples.

Results

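Cytochrome P450 families 1 to 4 were represented on the arrays by 59 mouse genes with 81 probes, out of 18656 genes tested. The genes were chosen by name only, as every probe whose transcript identifier maps to a RefSeq symbol made of Cyp, a family number from 1 to 4, a subfamily letter and a gene number. Of these genes, 40 had 1 probe and 19 had several. A gene was taken as detected where at least 1 of its probes lay well above background in the lung channel on 35 or more of the 69 arrays, and 35 of the 59 genes passed.

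Cytochrome P450s are haem enzymes of the endoplasmic reticulum that add oxygen to their substrates with electrons passed on by P450 reductase. Families 1, 2 and 3 oxidise many drugs, solvents and combustion products and also steroids and fatty acids, and family 4 acts mainly on fatty acids and related lipids. In the mouse lung, the club cells that line the small airways are known for their high P450 content, and family 1 is known as the classic target of the aryl hydrocarbon receptor, which is activated by polycyclic aromatic compounds.

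The lungs came from female C57BL/6 mice obtained at 5 to 7 weeks of age and acclimatised for 1 to 3 weeks. Every mouse was anaesthetised and received a single dose into the trachea, either 18, 54 or 162 µg of the nano-TiO2 NRCWE-025 or NRCWE-030, or the vehicle, water with 2% serum, without particles. Whole lungs were taken 1 day (24 h) or 28 days later, and the 14 groups held 5 mice each, except 4 mice at 162 µg NRCWE-025 on day 28. The vehicle mice of a day served as controls for both materials, so the comparisons of NRCWE-025 and NRCWE-030 with vehicle on that day are not independent.

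Each array compared the RNA of 1 mouse lung (Cy5) with a commercial mixed mouse reference RNA (Cy3), and every value below is a log2 ratio of lung over reference. A ratio near 0 means equal signal in lung and reference, and ratios of different genes are not levels that can be set against each other. The share of spots well above background ranged from 49.1% to 72.8% over the arrays, and no spot was saturated. The arrays lay on 19 slides scanned on 11 days, and the 7 alveolar type 2 cell markers, among them the surfactant genes Sftpc and Sftpb, were well above background on all 69 arrays. A single array at 162 µg NRCWE-025 on day 1 (replicate 1) stood apart: its mean over 7 acute phase genes was -0.44, within the vehicle range of -0.65 to 0.15, while the other 4 mice of its group ranged from 1.92 to 4.27. On 10 exposed arrays and no vehicle array, the mean of 5 liver cell markers was above 1.5, against 0.06 to 0.31 on the vehicle arrays. That limit cuts a continuous range: the next exposed arrays read 1.46, 1.34 and 1.31, also above all vehicle arrays.

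The families were unequally present in the lung. In family 1, 2 of 3 genes were detected, in family 2, 23 of 39, in family 3, 1 of 5, and in family 4, 9 of 12, which made 59.3% of the members against 73.4% of all genes. Of the 35 detected members, 20 lay well above background on all 69 arrays, among them Cyp2f2, which bioactivates naphthalene, Cyp4b1, a lung-rich enzyme of fatty acids and aromatic amines, Cyp2b10, Cyp2s1, Cyp2a5 and Cyp3a13. The subfamilies 2B, 2D and 4F were mostly detected, with 4 of 5, 5 of 7 and 5 of 6 genes. In contrast, 4 of 11 genes of 2C and 1 of 5 of 3A were, subfamilies that are best known from the liver. Cyp4a14, on 35 arrays, was the detected member nearest to the limit, and Cyp3a11, on 34 arrays, lay just outside it. Cyp2c38, Cyp2c39, Cyp2d13, Cyp4a29 and Cyp4a31 were not well above background on any array.

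On day 1 after the 162 µg dose, most detected P450 genes lay lower than in the vehicle mice, but no single gene passed the test. With NRCWE-025, 23 of the 35 detected members lay lower and 12 higher, where 51.9% of the 13700 detected genes of the arrays lay lower. The median log2 change of the members was -0.31, with a range from -0.95 to 0.47, against a median of -0.01 over all detected genes. With NRCWE-030, 22 members lay lower and 13 higher, where 49.5% of the detected genes lay lower. The median of the members was -0.10, with a range from -0.94 to 0.37, against 0.002 over all detected genes. The 24 members that were not detected had medians of -0.01 with NRCWE-025 and -0.0047 with NRCWE-030.

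**Figure D1:**
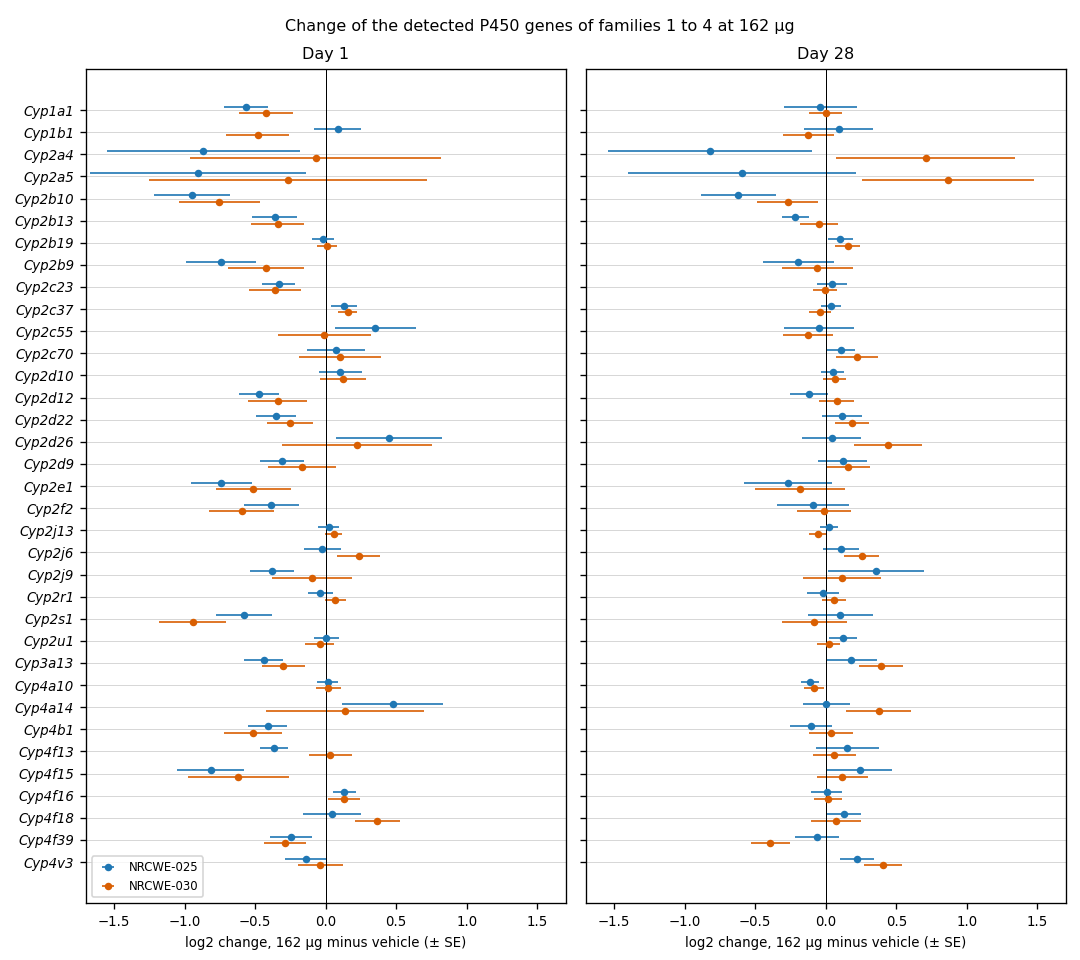
Log2 change at 162 µg against the vehicle mice of the same day, with its standard error, for the 35 detected P450 genes, with day 1 and day 28 in separate panels and the materials in separate colours. On day 1 most points of both materials lie left of 0, down to -0.95 for Cyp2b10 with NRCWE-025, and on day 28 the medians are 0.04 and 0.06.

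In the limma fits, with p-values adjusted over all 18656 genes, 0 of the 59 members passed an adjusted p of 0.05 at 162 µg on day 1 with either material, where 0.209% of all genes passed with NRCWE-025 and 1.69% with NRCWE-030. At an unadjusted p under 0.05, 14 members stood out with NRCWE-025 (23.7% of 59, against 12.3% of all genes). All 14 lay lower, where 7.11% of all genes were lower at that limit: Cyp1a1, Cyp2b9, Cyp2b10, Cyp2b13, Cyp2c23, Cyp2d12, Cyp2d22, Cyp2e1, Cyp2j9, Cyp2s1, Cyp3a13, Cyp4b1, Cyp4f13 and Cyp4f15. With NRCWE-030 there were 8 (13.6%, against 12.9% of all genes), of which 6 lay lower (5.72% of all genes were), namely Cyp1a1, Cyp1b1, Cyp2b10, Cyp2f2, Cyp2s1 and Cyp4b1, and 2 higher, Cyp2c37 and Cyp4f18. Over the alternative settings the 14 ranged from 6 to 18 and the 8 from 3 to 13. Without the NRCWE-025 array that stood apart, 13 members were under the unadjusted limit (22.0% of 59, against 10.6% of all genes), 11 of them among the 14, none passed the adjusted one, and the median of the detected members was -0.26.

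The median of the detected members lay below 0 on each of the 10 arrays, to an unequal degree. The median over the detected members, taken against the vehicle mean, was -0.41, -0.12, -0.14, -0.13 and -0.22 on the 5 arrays of 162 µg NRCWE-025 and -0.07, -0.23, -0.03, -0.11 and -0.10 on those of NRCWE-030. On the vehicle arrays it was -0.06, 0.01, 0.00, 0.04 and -0.03. Each vehicle array is itself part of the vehicle mean, which draws its value towards 0, so the vehicle range is narrower than for separate mice. The NRCWE-025 arrays all lay below the vehicle range, and the array at -0.41 was replicate 1, the array that stood apart in its acute phase genes. With NRCWE-030, 4 of 5 arrays lay below the vehicle range. Lower doses also reached below it. At 18 and 54 µg NRCWE-025 the arrays of day 1 ranged from -0.19 to 0.02 and from -0.18 to 0.25. At these doses of NRCWE-030 they ranged from -0.18 to 0.19 and from -0.26 to 0.12. Pairs of exposed and vehicle arrays from the same slide were few, with 1 array on each side. There the median over the members was -0.31 and -0.07 on 2 slides with NRCWE-025 and -0.10 and -0.04 on 2 slides with NRCWE-030. The value of -0.31 came from replicate 1, the array that stood apart. That array also gave 1 of the 2 NRCWE-025 slide values of day 1 for each gene below. Between arrays of the same scan day the median was -0.31, -0.07 and -0.03 with NRCWE-025 and -0.10 and -0.02 with NRCWE-030. The -0.31 and -0.07 are the same pairs of arrays as on the slides.

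No member passed the test for a dose effect on day 1 either. For NRCWE-025, 0 of 59 members passed (0.0214% of all genes did) and 19 had an unadjusted p under 0.05, which was 32.2% of the members against 9.98% of all genes. For NRCWE-030, 0 passed (0.954% of all genes) and 5 were under the unadjusted limit (11.2% of all genes). An F-test with no moderation of the variance likewise called 0 members for both. Of the 19 members of NRCWE-025, 8 were under the limit without the 10 arrays high in liver markers, where 7.45% of all genes were. That fit held fewer mice, so the counts do not stand on equal terms.

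**Figure D2:**
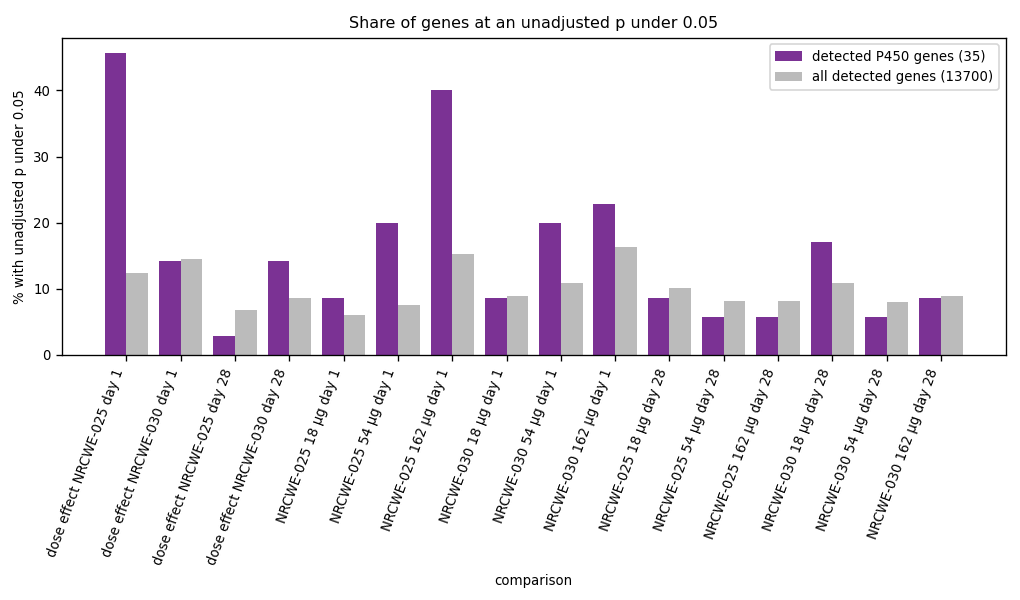
Share of genes with an unadjusted p under 0.05 in 16 comparisons, as bars in percent, for the 35 detected P450 genes and for all 13700 detected genes. The P450 bar is 45.7% against 12.4% for the dose effect of NRCWE-025 on day 1 and 40.0% against 15.3% for its 162 µg dose, while for the dose effect of NRCWE-030 on day 1 the bars are 14.3% and 14.5%.

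Because no member passed the test, the genes followed below across arrays were chosen after their values were seen, and their values are descriptions. Family 1 comes first. Cyp1a1 and Cyp1b1 oxidise polycyclic aromatic compounds and are induced through the aryl hydrocarbon receptor, which binds DNA at sites with the core GCGTG. Cyp1a2, the third gene of the family and mainly a liver enzyme, was well above background on 2 arrays only. The 250 bases before the start of Cyp1a1 and Cyp1b1 (RefSeq, build GRCm38.p6, 5′ to 3′ along the gene) are shown with GCGTG or its reverse complement CACGC in capitals, beside those of Cyp2s1, a family 2 gene reported to respond to the same receptor, which hold no such match.
Cyp1a1, chr9:57697363-57697612, plus strand: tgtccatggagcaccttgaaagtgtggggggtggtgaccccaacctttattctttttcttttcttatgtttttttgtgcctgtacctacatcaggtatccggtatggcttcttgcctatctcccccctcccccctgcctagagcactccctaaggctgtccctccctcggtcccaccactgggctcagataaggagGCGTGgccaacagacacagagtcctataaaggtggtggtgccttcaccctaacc
Cyp1b1, chr17:79715062-79715311, minus strand: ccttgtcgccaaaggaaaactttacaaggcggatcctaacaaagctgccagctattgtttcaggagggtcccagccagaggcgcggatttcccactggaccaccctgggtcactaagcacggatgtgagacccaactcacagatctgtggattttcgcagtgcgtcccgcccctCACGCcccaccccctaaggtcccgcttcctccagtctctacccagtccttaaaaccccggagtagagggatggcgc
Cyp2s1, chr7:25816526-25816775, minus strand: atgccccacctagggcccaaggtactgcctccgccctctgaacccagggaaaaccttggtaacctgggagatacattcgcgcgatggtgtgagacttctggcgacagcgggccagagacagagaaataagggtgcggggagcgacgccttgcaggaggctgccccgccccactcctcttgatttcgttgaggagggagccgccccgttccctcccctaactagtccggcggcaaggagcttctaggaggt

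The match lay 54 bases before the start of Cyp1a1 and 76 bases before that of Cyp1b1. Such a match was found in 28.2% of all 32851 promoter windows of this length and in 10 of the 48 members with a window. The motif is therefore common, and the letters alone are no evidence of binding.

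Cyp1a1 (chromosome 9, 1 probe) lay lower with NRCWE-025 on day 1. It read 0.67, 0.65, 0.56, 1.34 and 0.39 in the vehicle mice, 0.32, 0.07, 0.38, 0.04 and -0.04 at 162 µg NRCWE-025, and 0.65, 0.31, 0.32, 0.20 and 0.03 at 162 µg NRCWE-030. All 5 NRCWE-025 values lay below all vehicle values, and 4 of 5 NRCWE-030 values did. The share of all genes separated like Cyp1a1 is not given here. The log2 change was -0.56 ± 0.15 (SE, n = 5 against 5, limma, adjusted p = 0.120) with NRCWE-025 and -0.42 ± 0.19 (adjusted p = 0.352) with NRCWE-030. Its means at 18 and 54 µg NRCWE-025, 0.33 ± 0.17 and 0.38 ± 0.28 (SD), were also below the vehicle mean of 0.72 ± 0.36. Between arrays of the same slide, Cyp1a1 differed by -0.49 and -0.36 with NRCWE-025 and by -0.69 and -0.07 with NRCWE-030. Cyp1a1 was close to background. It lay well above background on 5 of 5 vehicle arrays of day 1. At 162 µg it did so on 1 of 5 arrays with NRCWE-025 and 2 of 5 with NRCWE-030. Cyp1a1 was well above background on 38 arrays in all, where the limit for a detected gene was 35. The 5 vehicle arrays of day 1 are among these 38, so its place among the detected members rests in part on that group. The size of the NRCWE-025 change depended on the processing: it was -3.06 with the scanner's own log ratio (adjusted p = 0.164) and -0.38 with scan day as a fixed block. In the vehicle mice of day 28 it read 0.28 ± 0.28 (SD, n = 5), 0.44 ± 0.19 (SE) lower than on day 1 (log2 change -0.44, adjusted p = 0.505), and the changes at 162 µg against it were -0.04 and 0.00.

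Cyp1b1 (chromosome 17) lay lower with NRCWE-030. It read -0.93, -1.24, -1.59, -1.68 and -1.94 in the vehicle mice of day 1, -1.41, -1.51, -1.28, -1.41 and -1.34 at 162 µg NRCWE-025, and -1.51, -1.80, -2.05, -2.48 and -1.96 at 162 µg NRCWE-030. The NRCWE-025 values lay within the vehicle range, and 3 of 5 NRCWE-030 values lay below it. The log2 changes were 0.09 ± 0.17 (SE, adjusted p = 0.881) and -0.48 ± 0.22 (adjusted p = 0.370), and at 54 µg NRCWE-030 the change was -0.50 ± 0.22 (adjusted p = 0.526). NRCWE-030 minus NRCWE-025 at 162 µg came to -0.57 ± 0.21 (adjusted p = 0.710), so the materials did not differ past the threshold. Within slides, the NRCWE-030 difference was -0.11 and 0.17.

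**Figure D3:**
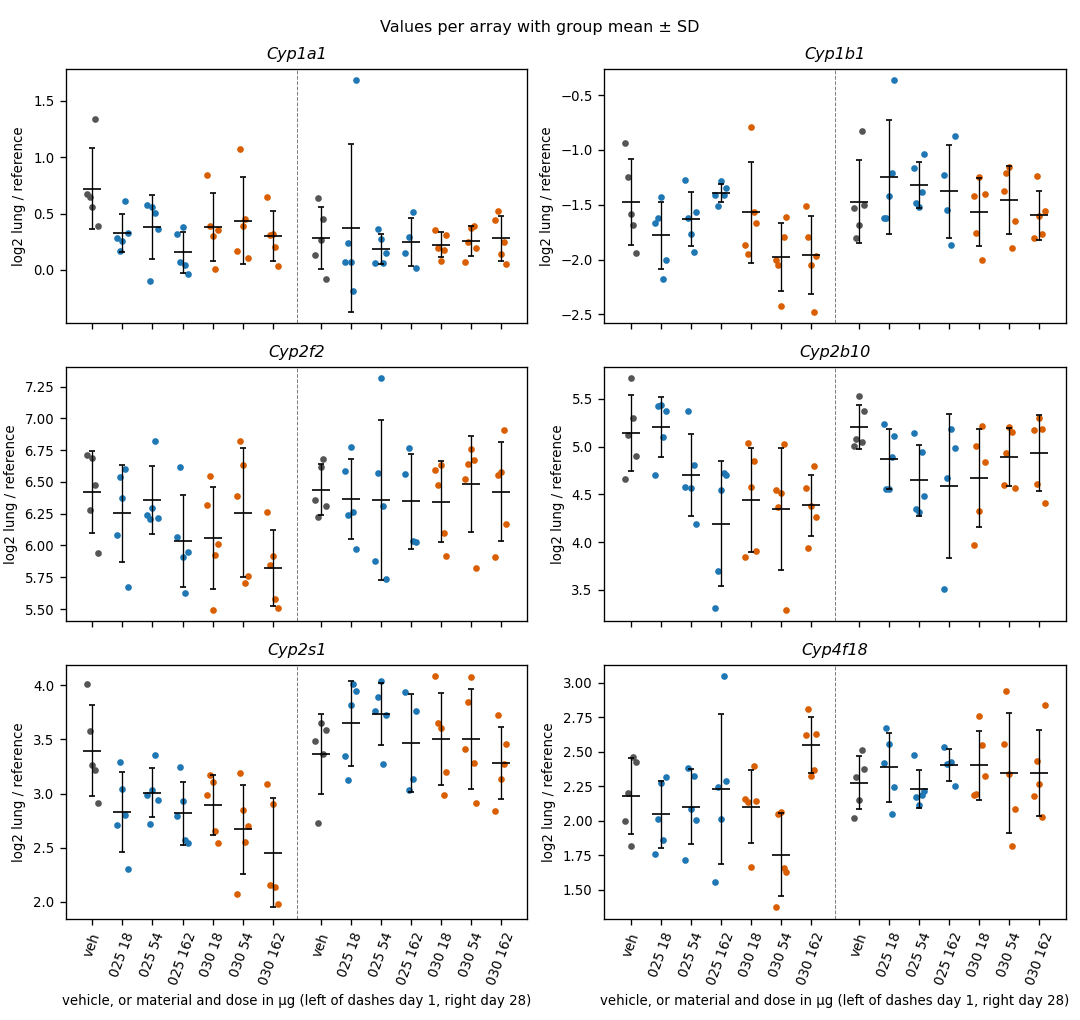
Log2 ratio of lung over reference RNA on each of the 69 arrays for Cyp1a1, Cyp1b1, Cyp2f2, Cyp2b10, Cyp2s1 and Cyp4f18, over the 14 groups of material, dose and day, with the group mean and SD. On day 1, Cyp2s1 steps down over the NRCWE-030 doses from a vehicle mean of 3.40 to 2.89, 2.67 and 2.45, and on day 28 its mean at 162 µg is 3.28 against 3.37 in the vehicle mice.

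Family 2 held the members with the largest differences on day 1. At 162 µg NRCWE-025, 16 of its 23 detected genes lay lower and 9 had an unadjusted p under 0.05, all of them lower. At 162 µg NRCWE-030, 15 lay lower, with 3 lower and 1 higher at the unadjusted limit. Over all detected genes, 51.9% lay lower with NRCWE-025 and 49.5% with NRCWE-030. At the unadjusted limit were 15.3% of all detected genes with NRCWE-025 and 16.3% with NRCWE-030. Of all genes tested, 7.11% and 5.72% were at that limit and lower. Cyp2s1 (chromosome 7), an airway enzyme, came nearest to the threshold.

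Cyp2s1 read 4.01, 3.57, 3.26, 3.22 and 2.91 in the vehicle mice of day 1 and 3.09, 2.16, 2.91, 2.13 and 1.98 at 162 µg NRCWE-030. In that group 4 of 5 values lay below all vehicle values. At 162 µg NRCWE-025 it read 2.79, 3.25, 2.93, 2.57 and 2.54, with 3 of 5 below. The log2 change with NRCWE-030 was -0.50 at 18 µg (adjusted p = 0.684), -0.72 ± 0.24 at 54 µg (adjusted p = 0.295) and -0.94 ± 0.24 at 162 µg (SE, n = 5 against 5, adjusted p = 0.0506), so it was larger at each higher dose without passing the threshold. With 162 µg NRCWE-025 it was -0.58 ± 0.20 (adjusted p = 0.209). The NRCWE-030 difference was smaller where slides or scan days were shared. It was -0.13 and -0.01 between arrays of the same slide, -0.39 and -0.13 between arrays of the same scan day, and -0.52 with slide as a fixed block (adjusted p = 0.456). Cyp2s1 at 162 µg was therefore not separated from the slides. On day 28 it read 3.28 ± 0.33 at 162 µg NRCWE-030 against 3.37 ± 0.37 in the vehicle mice (SD, n = 5), a change of -0.08 with an interval of 2 SE on each side from -0.54 to 0.38, and the change of day 1 minus that of day 28 was -0.86 ± 0.33 (SE, adjusted p = 0.432).

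Cyp2b10 (chromosome 7), a drug-inducible target of the nuclear receptor CAR, lay lower at 162 µg of both materials. It read 4.66, 5.13, 5.71, 5.30 and 4.90 in the vehicle mice of day 1, 3.31, 3.70, 4.55, 4.72 and 4.70 with NRCWE-025, and 4.56, 3.94, 4.38, 4.79 and 4.26 with NRCWE-030. Below all vehicle values lay 3 of 5 arrays with NRCWE-025 and 4 of 5 with NRCWE-030. The log2 changes were -0.95 ± 0.27 (SE, adjusted p = 0.134) and -0.75 ± 0.29 (adjusted p = 0.232). With NRCWE-030 the change was nearly as large at the lowest dose, -0.70 at 18 µg and -0.79 at 54 µg. Between arrays of the same slide it was -2.02 and -1.36 with NRCWE-025 and -0.74 and -0.53 with NRCWE-030, and between arrays of the same scan day -2.02, -1.36 and -0.18 with NRCWE-025 and -0.74 and -0.32 with NRCWE-030. Cyp2b10 was also lower on day 28 at 162 µg NRCWE-025, at 3.51, 4.67, 5.18 and 4.99 against 5.01, 5.08, 5.53, 5.04 and 5.37 in the vehicle mice, with 3 of 4 values below all vehicle values and a change of -0.62 ± 0.27 (adjusted p = 0.651), which was -0.26 without replicate 1. Its relatives Cyp2b9 and Cyp2b13 had log2 changes of -0.74 and -0.36 at 162 µg NRCWE-025 on day 1 and of -0.42 and -0.34 with NRCWE-030, while Cyp2b19 had -0.02 and 0.01. The 2 probes of Cyp2b9 gave -0.98 and -0.51 with NRCWE-025 and -0.62 and -0.23 with NRCWE-030. Those of Cyp2b13 gave -0.61 and -0.12 with NRCWE-025 and -0.61 and -0.07 with NRCWE-030. Whether the probes of these related genes share signal was not tested, so the genes may not be separate evidence.

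Cyp2f2 (chromosome 7), a gene of the club cells, and Cyp2e1 (chromosome 7), which oxidises ethanol and small solvents, followed. Cyp2f2 read 6.72, 6.28, 6.69, 6.47 and 5.94 in the vehicle mice of day 1, 6.07, 6.62, 5.91, 5.63 and 5.95 at 162 µg NRCWE-025 and 6.26, 5.85, 5.92, 5.58 and 5.51 at 162 µg NRCWE-030. Of these, 2 of 5 and 4 of 5 lay below all vehicle values, with changes of -0.38 ± 0.20 (SE, adjusted p = 0.440) and -0.60 ± 0.23 (adjusted p = 0.240). The NRCWE-030 difference in Cyp2f2 was -0.21 and -0.02 between arrays of the same slide. Cyp2e1 read 0.54, 2.02, 1.29, 1.16 and 1.30 in the vehicle mice, 0.05, 0.94, 0.66, 0.67 and 0.28 with NRCWE-025 and 0.57, 0.37, 1.17, 1.10 and 0.54 with NRCWE-030. The groups overlapped for Cyp2e1, with 2 of 5 exposed arrays of each material below the vehicle range. Its changes were -0.74 ± 0.22 (adjusted p = 0.144) and -0.51 ± 0.26 (adjusted p = 0.444).

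Cyp2a5 (chromosome 7), the enzyme that oxidises coumarin and nicotine, differed between mice far more than between groups. It read 6.65, 7.04, 4.77, 3.56 and 3.23 in the vehicle mice of day 1, 3.20, 3.98, 4.25, 5.26 and 4.03 at 162 µg NRCWE-025 and 6.98, 4.12, 6.43, 3.44 and 2.94 at 162 µg NRCWE-030. The groups overlapped almost fully, and the changes were -0.90 ± 0.77 (SE, adjusted p = 0.680) and -0.27 ± 0.98 (adjusted p = 0.964). Over the 69 arrays Cyp2a5 ranged from 2.59 to 7.54, a 31.0-fold span. Its SD within groups was 1.38, above that of 99.8% of the 13700 detected genes, whose median was 0.20. Its near-identical neighbour Cyp2a4 had an SD of 1.28, and the probes of the pair may share signal, so they are not separate evidence. Of the 10 arrays highest in Cyp2a5, 5 were among the 10 highest in club cell markers and 7 among the 10 highest in heart muscle markers (Myh6, Tnni3, Myl7, Nppa, Tnnt2 and Actc1). Whether the amount of airway or of other tissue in a sample accounts for the spread was not tested.

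The other detected genes of family 2 lay between these. At 162 µg NRCWE-025 on day 1 the log2 change was -0.47 for Cyp2d12, -0.35 for Cyp2d22, -0.31 for Cyp2d9, -0.38 for Cyp2j9 and -0.33 for Cyp2c23. With NRCWE-030 the values for these genes were -0.34, -0.25, -0.17, -0.10 and -0.36, in the same order. None of these passed the adjusted threshold. Cyp2r1, a vitamin D 25-hydroxylase, had changes of -0.04 and 0.07, and Cyp2u1, a fatty acid hydroxylase, of 0.00 and -0.04. Cyp2c55 lay at 0.35 with NRCWE-025 and at -0.01 with NRCWE-030, and its smallest adjusted p over the comparisons was 0.661.

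In family 3, Cyp3a13 (chromosome 5) was the detected gene; family 3 oxidises steroids and many drugs. It read 1.48, 1.48, 1.80, 1.43 and 1.20 in the vehicle mice of day 1, 0.95, 1.29, 1.29, 0.94 and 0.73 at 162 µg NRCWE-025 and 1.14, 1.10, 1.14, 1.48 and 1.04 at 162 µg NRCWE-030. Below all vehicle values lay 3 of 5 and 4 of 5 arrays. The changes were -0.44 ± 0.14 (SE, adjusted p = 0.175) and -0.30 ± 0.15 (adjusted p = 0.440), and between arrays of the same slide -0.53 and -0.51 with NRCWE-025 and -0.29 and -0.06 with NRCWE-030. Between arrays of the same scan day the NRCWE-030 difference in Cyp3a13 was -0.29 and 0.11. On day 28 Cyp3a13 lay on the other side with NRCWE-030. It read 1.26, 0.85, 1.48, 1.02 and 1.33 in the vehicle mice and 1.71, 1.61, 1.56, 1.89 and 1.11 at 162 µg, with 4 of 5 values above all vehicle values. The change there was 0.39 ± 0.16 (adjusted p = 0.560), and it was 0.41 at both lower doses (adjusted p = 0.382 and 0.645). The change of day 1 minus that of day 28 was -0.62 ± 0.24 with NRCWE-025 (adjusted p = 0.327) and -0.69 ± 0.23 with NRCWE-030 (adjusted p = 0.312).

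Family 4 was divided. At 162 µg NRCWE-025 on day 1, 5 of its 9 detected genes lay lower, with 3 at an unadjusted p under 0.05, and with NRCWE-030 4 lay lower and 5 higher. Over all detected genes, 51.9% and 49.5% lay lower, and 15.3% were at the unadjusted limit with NRCWE-025. Cyp4b1 (chromosome 4) read 7.02, 6.75, 6.91, 6.93 and 6.37 in the vehicle mice, 6.33, 6.61, 6.18, 6.22 and 6.58 with NRCWE-025 and 6.65, 6.20, 6.11, 6.15 and 6.31 with NRCWE-030. Below the vehicle range lay 3 of 5 and 4 of 5 arrays, and the changes of Cyp4b1 were -0.41 ± 0.14 (SE, adjusted p = 0.205) and -0.51 ± 0.20 (adjusted p = 0.261).

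The 4F genes, which hydroxylate leukotrienes and other fatty acids, did not go 1 way. Cyp4f15 (chromosome 17) read 2.91, 3.14, 2.86, 2.84 and 2.28 in the vehicle mice of day 1, 1.44, 2.21, 2.16, 2.55 and 1.59 at 162 µg NRCWE-025 and 2.70, 2.11, 2.97, 1.95 and 1.21 at 162 µg NRCWE-030. With NRCWE-025 4 of 5 values lay below all vehicle values, with a change of -0.82 ± 0.23 (SE, adjusted p = 0.136), and with NRCWE-030 3 of 5 did, with -0.62 ± 0.36 (adjusted p = 0.519). Between arrays of the same slide Cyp4f15 differed by -1.46 and -0.65 with NRCWE-025 and by -0.14 and 0.69 with NRCWE-030, and with NRCWE-025 the difference was 0.27 on 1 of 3 shared scan days. On day 28 Cyp4f15 lay higher with NRCWE-025: 54 µg gave 3.47, 3.01, 3.56, 3.01 and 2.98 against 2.80, 2.52, 2.50, 2.62 and 2.83 in the vehicle mice. These groups did not overlap, and the share of all genes whose groups did not overlap is not given here. The change was 0.55 ± 0.22 (adjusted p = 0.615), in a comparison where 7.07% of all genes were at an unadjusted p under 0.05. At 18 µg it was 0.58 ± 0.22 (adjusted p = 0.417) and at 162 µg 0.24, so it did not grow with dose. Of the 10 arrays lowest in Cyp4f15, 8 were among the 10 lowest in ciliated cell markers, and of the 10 highest, 7 among the 10 highest. For heart muscle markers these counts were 7 and 4, for the club cell markers 4 and 3, and for alveolar type 2 and liver cell markers lower. The part of ciliated or other cells was not tested.

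Cyp4f13 (chromosome 17) lay lower with NRCWE-025. It read 0.02, 0.12, 0.12, 0.22 and 0.39 in the vehicle mice of day 1, -0.28, -0.14, -0.22, -0.21 and -0.10 at 162 µg NRCWE-025 and 0.01, -0.05, 0.34, 0.30 and 0.44 at 162 µg NRCWE-030. All 5 NRCWE-025 values lay below all vehicle values, with a change of -0.37 ± 0.10 (SE, adjusted p = 0.125), and the NRCWE-030 values overlapped with them, at 0.03 ± 0.15 (adjusted p = 0.972). How many of all genes lay fully below vehicle with NRCWE-025 is not given here. The 5 values of Cyp4f13 at 54 µg NRCWE-025 were -0.09, 0.02, -0.16, -0.01 and -0.15, a change of -0.25 ± 0.10 (adjusted p = 0.691). NRCWE-030 minus NRCWE-025 at 162 µg was 0.40 ± 0.17 for Cyp4f13 (adjusted p = 0.763), so a difference between the materials was not shown.

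Cyp4f18 (chromosome 8), known from neutrophils and other myeloid cells as a leukotriene B4 hydroxylase, had the smallest p among the members for a dose effect of NRCWE-030 on day 1 (adjusted p = 0.0614). It read 2.00, 2.20, 1.82, 2.46 and 2.43 in the vehicle mice, 2.16, 2.14, 1.67, 2.39 and 2.14 at 18 µg, 1.37, 2.05, 2.07, 1.66 and 1.63 at 54 µg and 2.62, 2.81, 2.32, 2.37 and 2.63 at 162 µg. The levels had no order by dose. Cyp4f18 lay 0.43 lower than vehicle at 54 µg (change -0.43 ± 0.16, adjusted p = 0.374) and 0.37 ± 0.16 higher at 162 µg (adjusted p = 0.310), and 3 of 5 values at 162 µg lay above all vehicle values. Between arrays of the same slide the difference at 162 µg was -0.11 and 0.16, and with slide as a fixed block it was -0.01 (adjusted p = 0.992). Beside it, the 6 neutrophil markers had a median change of 0.13 at 162 µg NRCWE-030, with 3 higher and 3 lower and none called; their part was not tested.

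At the lower doses on day 1, 0 of 59 members passed the adjusted test. With NRCWE-025 18 µg, 3 members were at an unadjusted p under 0.05 (5.12% of all genes; 0% passed the adjusted test). With NRCWE-025 54 µg there were 11 (18.6% of 59, against 6.53% of all genes; 0% passed), of which 9 lay higher, where 3.26% of all genes were higher at that limit. With NRCWE-030 18 µg there were 3 (7.3% of all genes; 0.00536% passed) and with 54 µg 7 (8.76% of all genes; 0.0804% passed). The medians of the 35 detected members were -0.01 and -0.06 at 18 and 54 µg NRCWE-025 and -0.07 and -0.11 at these doses of NRCWE-030.

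**Figure D4:**
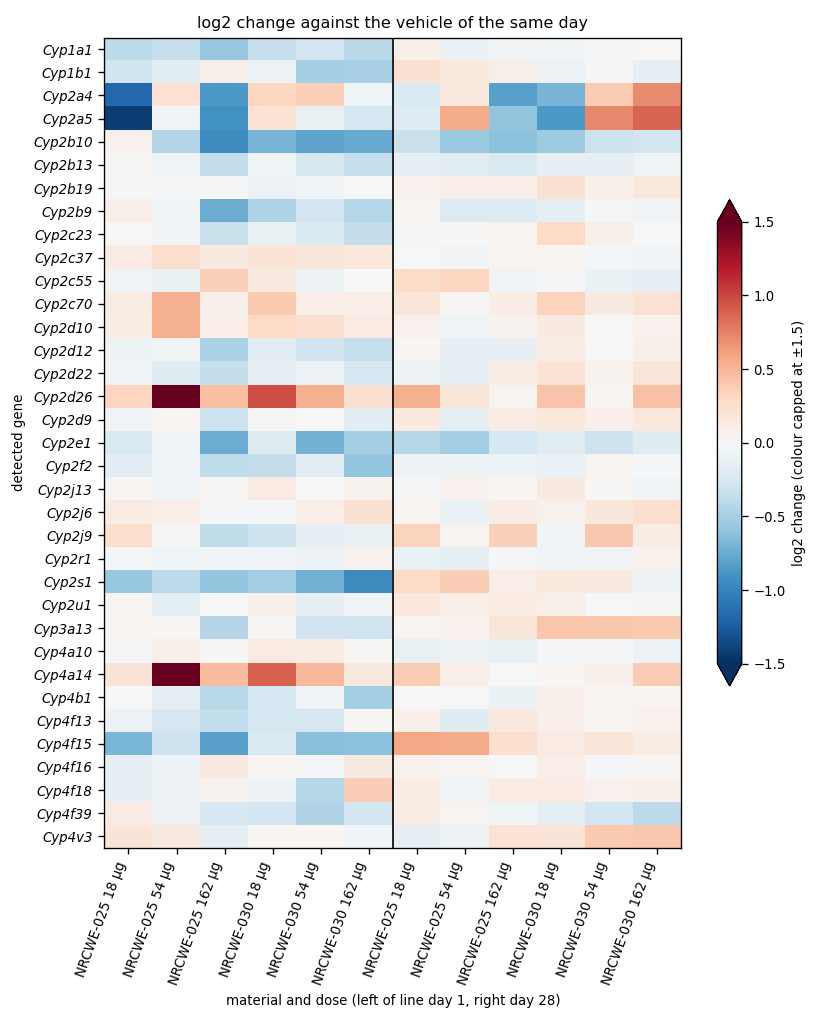
Log2 change against the vehicle mice of the same day for the 35 detected P450 genes (rows) in the 12 combinations of material, dose and day (columns), as colours capped at 1.5 in both directions. On day 1, 23 and 22 of the genes lie lower at 162 µg of NRCWE-025 and NRCWE-030 (51.9% and 49.5% of all detected genes do), and Cyp2d26 and Cyp4a14 stand out on the higher side at 54 µg NRCWE-025 on day 1, at 1.57 and 1.49.

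On day 28 at 162 µg, more of the detected members lay above their vehicle levels than below, with medians near 0. At 162 µg the medians were 0.04 with NRCWE-025, with 14 lower and 21 higher, and 0.06 with NRCWE-030, with 13 lower and 22 higher. Over all detected genes, 52.3% and 50.5% lay lower there. The 22 members higher with NRCWE-030 match in number the 22 that lay lower with it on day 1. None of the 59 members passed the adjusted test for a dose effect, and the counts at an unadjusted p under 0.05 were 2 for NRCWE-025 (5.77% of all genes; 0.0268% passed the adjusted test) and 5 for NRCWE-030 (7.06% of all genes; 0.102% passed). By dose of NRCWE-025, 5 members were under the unadjusted limit at 18 µg (8.89% of all genes; 0.059% passed), 3 at 54 µg (7.07%; 0.0268% passed) and 3 at 162 µg (7.24%; 0.0161% passed). By dose of NRCWE-030 there were 8 at 18 µg (9.03%; 0.118% passed), 2 at 54 µg (6.52%; 0.0536% passed) and 3 at 162 µg (7.51%; 0.0965% passed). These counts were 3.39% to 13.6% of the members.

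Cyp4v3 (chromosome 8), a fatty acid hydroxylase of many tissues, lay higher on day 28 with NRCWE-030. It read 2.78, 2.52, 3.21, 2.62 and 3.03 in the vehicle mice, 3.33, 3.37, 3.46, 3.24 and 2.76 at 54 µg and 3.11, 3.38, 3.43, 3.01 and 3.28 at 162 µg. In the 162 µg group 3 of 5 values lay above all vehicle values. The changes of Cyp4v3 were 0.40 ± 0.13 (SE, adjusted p = 0.536) and 0.41 ± 0.13 (adjusted p = 0.429).

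The change at 162 µg lay lower on day 1 than on day 28 for most detected members, 28 of 35 with NRCWE-025 (median difference -0.18) and 26 of 35 with NRCWE-030 (median difference -0.29). Over all detected genes, it lay lower on day 1 for 50.5% and 49.7%. No member passed the test of that difference with either material (0.059% and 0.198% of all genes did). At an unadjusted p under 0.05 there were 4 members with NRCWE-025 (10.5% of all genes) and 5 with NRCWE-030 (7.67% of all genes), all on the lower side, with Cyp2d22 and Cyp3a13 in both. Between the vehicle mice of day 28 and day 1, 0 members passed (0.0375% of all genes) and 2, Cyp1a1 and Cyp2b23, were under the unadjusted limit (8.51% of all genes).

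The materials were compared over all 3 doses within a day. On day 1, 0 of 59 members differed between NRCWE-030 and NRCWE-025 (0.155% of all genes passed) and 5 had an unadjusted p under 0.05 (7.78% of all genes). On day 28, 0 passed (0.241% of all genes) and 5 had an unadjusted p under 0.05 (6.29% of all genes). Cyp2c38, a gene at background on all arrays, had the smallest adjusted p of the members on day 28, 0.107, and Cyp4v3 had 0.199. For Cyp2s1 at 162 µg on day 1, NRCWE-030 minus NRCWE-025 was -0.37, with an interval of 2 SE on each side from -0.83 to 0.10, and for Cyp2b10 it was 0.19, from -0.37 to 0.76, so differences of these sizes between the materials were not resolved.

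A separate pattern ran through Cyp2d26 (chromosome 15) and Cyp4a14 (chromosome 4), a fatty acid hydroxylase known from the liver as a target of PPARalpha. Cyp2d26 read -0.15, -0.09, -0.35, -0.13 and -0.13 in the vehicle mice of day 1 and 1.71, 0.77, -0.16, 2.88 and 1.82 at 54 µg NRCWE-025, a change of 1.57 ± 0.37 (SE, adjusted p = 0.232). Cyp4a14 read 0.02, -0.00, 0.02, 0.14 and -0.01 in the vehicle mice and 1.35, 1.06, 0.05, 2.79 and 2.35 at 54 µg NRCWE-025, a change of 1.49 ± 0.36 (adjusted p = 0.232). In both genes 4 of these 5 mice were high and replicate 3 lay near the vehicle level. The highest reading of both, 3.75 and 4.08, was on replicate 2 of 18 µg NRCWE-030, whose 4 companions read 0.43 or lower in Cyp2d26 and 0.62 or lower in Cyp4a14.

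These arrays were also high in liver cell markers. The liver list (5 of 6 genes measured) had a mean above 1.5 on 10 arrays: 3 of 5 at 54 µg NRCWE-025 on day 1, 2 of 5 at 18 µg NRCWE-025 on day 28, and 1 each at 162 µg NRCWE-025 on day 1, at 18 and 54 µg NRCWE-030 on day 1 and at 18 and 162 µg NRCWE-030 on day 28. The same 10 arrays were the 10 highest in Cyp2d26, and 9 of them were above all vehicle arrays in Cyp4a14. On the array with the highest mean, 3.40, albumin (Alb) read 4.54 and fetuin A (Ahsg) 4.87, while transthyretin (Ttr) read 0.64 there and -0.19 to 0.34 on the other 9. Alb and Ahsg were well above background on 67 arrays, Fgb on 32, Apoa1 on 13 and Ttr on 3. Above all vehicle arrays on most of the 10 were Cyp2d26 and Cyp2d10 (10 of 10), Cyp4a14 and Cyp2c40 (9), and Cyp2c70, Cyp4f14 and Cyp3a44 (8). Of the 49 other exposed arrays, 19 were above all vehicle arrays in Cyp2d26, 8 in Cyp2d10, 8 in Cyp4a14 and 7 in Cyp2c40. In Cyp2c70, Cyp4f14 and Cyp3a44, 9, 10 and 1 of the 49 were. Without the 10 arrays, the change at 54 µg NRCWE-025 was 0.47 for Cyp2d26 and 0.52 for Cyp4a14 (adjusted p = 0.9995 for both), and 2 members in place of 11 were under the unadjusted limit, both among the 11 (3.39% of 59, against 4.85% of all genes). This left out 3 of the 5 mice of that group, so lost precision and removed signal cannot be told apart. Replicate 2, which was kept, had a liver mean of 1.46 and read 0.77 in Cyp2d26 and 1.06 in Cyp4a14. At 162 µg on day 1 the count went from 14 to 13 with NRCWE-025, all among the 14 (10.0% of all genes), and from 8 to 12 with NRCWE-030, the 8 and Cyp2b13, Cyp2c23, Cyp2e1 and Cyp3a13 (20.3% of 59, against 12.9% of all genes). None of the arrays left out was in the 162 µg NRCWE-030 or vehicle group of day 1, so the count of NRCWE-030 moved with the other dose groups in its fit. The source of this signal was not tested.

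**Figure D5:**
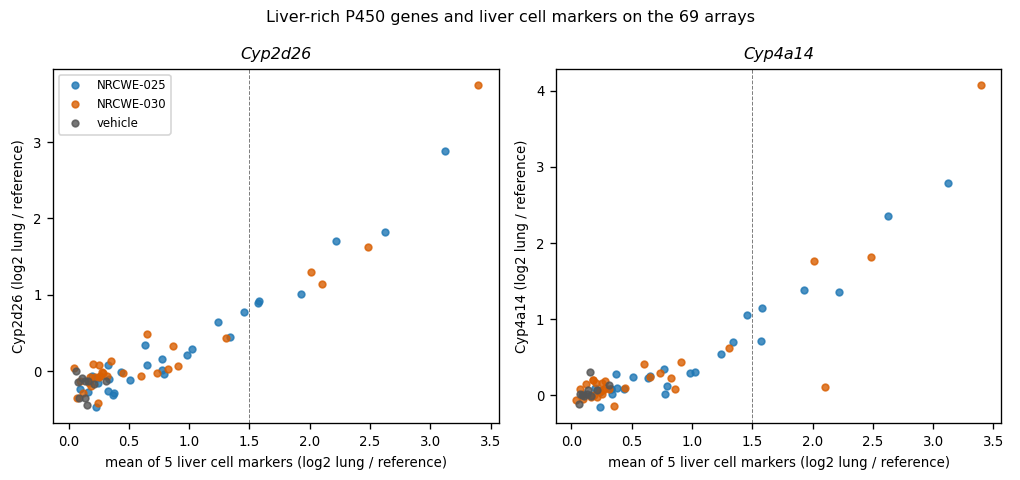
Cyp2d26 and Cyp4a14 (log2 ratio, vertical axes) against the mean log2 ratio of the 5 liver cell markers (horizontal axis), with 1 point for each of the 69 arrays and a dashed line at a marker mean of 1.5. The 10 arrays right of the line are exposed mice and include the highest values of both genes, and the vehicle arrays lie between 0.06 and 0.31 on the horizontal axis.

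Of the members that were not detected, Cyp2c40 was well above background on 4 of 5 arrays at 54 µg NRCWE-025 on day 1 and on none of the vehicle arrays of that day. It read 0.40, 0.20, 0.10, 1.39 and 0.55 in that group, and 3 of the 5 mice were among the arrays high in liver markers.

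The surroundings of the P450 system were read from gene lists of known function. Of the 7 genes of the aryl hydrocarbon receptor pathway, 0 were called at 162 µg on day 1 with either material, with medians of -0.10 and -0.03. The receptor gene Ahr itself had a log2 change of -0.20 ± 0.16 (SE, adjusted p = 0.656) with NRCWE-025 and -0.45 ± 0.16 (adjusted p = 0.186) with NRCWE-030, and the target gene Nqo1 of 0.05 and -0.03. Of 10 nuclear receptors that control P450 genes, 0 were called, and their medians were 0.00 and 0.02. Of the 5 electron donors, 4 lay lower with each material and 0 were called, where 51.9% and 49.5% of all detected genes lay lower. Por, the P450 reductase, had changes of -0.26 ± 0.18 (adjusted p = 0.610) and -0.47 ± 0.16 (adjusted p = 0.179), and Cyb5a, cytochrome b5, of -0.34 and -0.36.

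Among the other enzymes of foreign compounds some did pass. Of 15 oxidation and hydrolysis enzymes outside the P450s, 14 lay lower with NRCWE-025 and 13 with NRCWE-030, with a median of -0.42 for both. Over all detected genes, 51.9% and 49.5% lay lower, and 0.209% and 1.69% of all genes passed the adjusted test. The calls below come from the main fits, without slide or scan day blocks. Aldehyde oxidase, Aox1, fell by 0.60 ± 0.08 on the log2 scale (SE, adjusted p = 0.00677) with NRCWE-025 and by 0.55 ± 0.10 (adjusted p = 0.00549) with NRCWE-030. With NRCWE-030 the carboxylesterase Ces1f fell by 1.24 ± 0.31 (adjusted p = 0.0436). Of 15 conjugation enzymes, the glutathione transferase Gstm1 fell by 0.92 ± 0.22 with NRCWE-030 (adjusted p = 0.0367), and 0 were called with NRCWE-025. Of 18 genes of other P450 families, 0 were called, and their medians were 0.00 and 0.02. On day 28 none of these enzyme and receptor lists held a called gene at 162 µg.

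Markers of airway, fat and heart cells lay lower on the same arrays. In these whole-lung samples, fewer cells of a type and less RNA per cell cannot be told apart. All 6 measured club cell markers lay lower at 162 µg NRCWE-025 on day 1 (median -0.75) and 4 of 6 with NRCWE-030 (median -0.54), with 0 called. Over all detected genes, 51.9% and 49.5% lay lower in these 2 comparisons. The club markers Aldh1a1, Cbr2 and Gsta3 also belong to the enzyme lists above, so these lists are not separate evidence. The mean of the club list ranged from 3.74 to 5.79 in the vehicle mice, from 3.68 to 4.63 with NRCWE-025 and from 3.72 to 5.42 with NRCWE-030. All 6 ciliated cell markers lay lower with both (median -0.41), with list means of 2.55 to 3.52, 2.39 to 2.85 and 2.05 to 3.30 in the same order. The 7 alveolar type 2 markers had medians of -0.21 and -0.18. The 6 heart muscle markers had medians of -1.43 and -0.48, with list means of 0.96 to 5.02 in the vehicle mice, 0.54 to 1.10 with NRCWE-025 and 0.19 to 3.70 with NRCWE-030, and the 6 fat cell markers -0.85 and -0.62. None of these marker genes was called. The club, ciliated and type 2 markers were well above background on all 69 arrays, Nppa of the heart list on 51 and Lep of the fat list on 1, and their part in the P450 values was not tested. Of the 10 arrays lowest in Cyp2s1, 8 were among the 10 lowest in ciliated cell markers. In heart muscle markers 6 were, in club cell markers 5, in alveolar type 2 markers 2 and in liver cell markers 1.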

How the data were processed

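The authors deposited 69 scanner files of 2-colour arrays (Agilent Feature Extraction 11.0.1.1, per the file headers) with intensity, local background, flags and a log10 ratio for each of 45018 spots, and a matrix of log2 ratios, used as an alternative only. Spots whose local background was marked as an outlier were given the median background of the unmarked spots on that array. As deposited, such backgrounds drove the normexp mean down to -259.4 in Cy5 and to -1152.5 in Cy3. Normexp (offset 50) and loess within arrays (control and outlier spots at weight 0) were run in limma 3.58.1 (R 4.3.3), with the median over the spots of a probe and the probes of a symbol. Dyes were not swapped, and the number of arrays limits the precision. RefSeq (GRCm38.p6) named 27479 of 41174 probes; 93 of 18749 symbols lacked a value on some array. Dose was tested with a moderated F for each material and day, and single doses, materials and days with moderated contrasts, adjusted by Benjamini-Hochberg over 18656 genes. The fits were tested on simulated data. P-values measure the spread between arrays, each of 1 mouse, which also holds differences between slides and scan days. The main fits took the arrays as independent. With slide as a random block, the correlation of arrays within a slide was 0.27 to 0.35 over the fits. Full values were planned for members past an adjusted p of 0.05; none was, so 15 were taken after their values were seen. The members and gene lists were chosen with earlier results of these data known. Alternatives were other background corrections, normalizations, probe summaries, filters, slide and scan day blocks, a joint fit, left-out arrays and, chosen after seeing the data, omission of arrays high in liver markers.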

Additional observations from a re-analysis of the deposited data

Results flagged for a closer look

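Among 210 sets of 4 or 5 arrays (15 described genes in 14 groups), 22 had an array whose gap to its nearest companion exceeded Dixon's 95% limit, and chance flags about 1 in 20. Of these, 11 concerned Cyp2d26 and Cyp4a14. Cyp2d26 read 3.75 on replicate 2 of 18 µg NRCWE-030 on day 1, 1.62 on replicate 2 of 54 µg NRCWE-030 on day 1, 1.30 on replicate 4 of 162 µg and 1.14 on replicate 1 of 18 µg NRCWE-030 on day 28. Those 4 arrays were all high in liver markers. It read 0.48 on replicate 3 of 162 µg NRCWE-030 on day 1 and -0.35 on replicate 3 of the vehicle mice of day 1. Cyp4a14 read 4.08, 1.82 and 1.77 on the first 3 of these arrays, and it was set apart by small gaps at 0.018 on replicate 3 of 162 µg NRCWE-025 on day 28 and 0.14 on replicate 4 of the vehicle mice of day 1.

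Cyp1a1 read 1.68 on replicate 5 of 18 µg NRCWE-025 on day 28, where its nearest companion read 0.24. Cyp2a5 read 6.10 on replicate 2 of 18 µg NRCWE-025 on day 1, against 3.49 for the next array. Cyp2f2 stood apart at 6.83 on replicate 4 of 54 µg NRCWE-025 on day 1 and at 5.82 on replicate 5 of 54 µg NRCWE-030 on day 28. Cyp4f13 lay low at -1.23 on replicate 5 of 54 µg NRCWE-025 on day 28 and at -0.76 on replicate 3 of 18 µg NRCWE-030 on day 1. Cyp2e1 read 1.41 on replicate 3 and Cyp4f18 2.47 on replicate 1 of 54 µg NRCWE-025 on day 28. Cyp3a13 read 1.48 on replicate 4 of 162 µg NRCWE-030 on day 1. Cyp4v3 read 3.36 on replicate 2 of 162 µg and 2.56 on replicate 1 of 18 µg NRCWE-025 on day 28.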

How the results depend on the processing

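The count of 0 called members changed to 1 under these settings. With slide as a random block, Cyp2b10 was called at 162 µg NRCWE-025 on day 1 (adjusted p = 0.0497) and Cyp4f18 for the dose effect of NRCWE-030 on day 1 (0.0224), and 1 member, Cyp4f18, was called there with slide as a fixed block (0.0469) and in 1 fit of all groups (0.0362). Cyp2s1 was the 1 member called at 162 µg NRCWE-030 on day 1 with the brightest probe (0.0481), with detected genes only (0.0384), in 1 fit of all groups (0.0130) and without the arrays high in liver markers (0.0460), but not with slide as a random block (0.05003). With slide as a fixed block, 1 member was called for the difference between days of NRCWE-025 (Cyp4v3, -0.54, 0.0372) and 1 between the vehicle days (Cyp2j9, -1.86, 0.0145), and the change of Cyp4f18 at 162 µg NRCWE-030 on day 1 turned to -0.010. Leaving out 1 array at a time gave 0 to 2 called members for the dose effect of NRCWE-025 on day 1 and for its 54 µg dose (Cyp2d26 and Cyp4a14, both 0.0109 without replicate 3 of 54 µg), 0 to 1 for the dose effect of NRCWE-030 on day 1 (Cyp4f18, 0.0484, 0.0488 and 0.0349 without replicate 3 of vehicle, 54 µg or 18 µg), 0 to 1 at 162 µg NRCWE-030 on day 1 (Cyp2s1, 0.0321, 0.0426 and 0.0377 without exposed replicate 1 or 3 or vehicle replicate 5) and 0 to 2 between the materials on day 28 (Cyp2c38 and Cyp4v3, without replicate 5 of 54 µg NRCWE-030). The median change of the detected members at 162 µg on day 1 ranged from -0.32 to -0.20 with NRCWE-025 and from -0.18 to -0.036 with NRCWE-030 when 1 array was left out, and with the scanner's own log ratio it was -0.15 and -0.22. That ratio also gave Cyp1a1 -3.06 and Cyp2b10 -0.45 at 162 µg NRCWE-025 on day 1, and the backgrounds as deposited gave Cyp2b10 -1.69. The cause of these differences was not tested. Scaling between arrays by A values leaves ratios as they are. No paired analysis was possible because the replicate numbers tie no mice together across groups. Genes near background, such as Cyp1a1, are limited by their signal.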
